A study of Mus minutoides with 4 samples.

Results

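Primitive streak and endoderm regulators were followed in the African pygmy mouse, *Mus minutoides*, as the 8 genes *T*, *Mixl1*, *Eomes*, *Gsc*, *Foxa2*, *Sox17*, *Gata4* and *Gata6*. They were chosen by name, and each matched 1 of the 41325 gene rows in the files. The libraries compared 2 lines of untransfected fibroblasts (lines 1 and 2) with 2 lines of iPSCs (lines 6 and 10), with 1 library per line. The fibroblasts were primary tail-tip cultures grown in serum. The iPSCs were made by electroporating such fibroblasts with piggyBac plasmids that express *Oct3/4*, *Klf4*, *Sox2*, *c-Myc*, *Glis1*, *Nanog* and *Lin28a* under doxycycline, together with plasmids for rtTA with EGFP and for the transposase. Each iPSC line was seeded from single cells of a domed colony picked after doxycycline had been stopped. The lines were kept on mouse embryonic fibroblasts treated with mitomycin C, in a serum replacement medium with a 2i supplement, so cell type, medium and feeder cells cannot be told apart in the comparison. Neither the age of the animals nor their number per group was given in the sources, and the p-values therefore describe the spread between these 4 cultures.

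In the mouse embryo, the primitive streak is the site where epiblast cells leave the pluripotent layer and become mesoderm and definitive endoderm. *T* (Brachyury) and *Eomes* encode T-box factors of the streak, *Mixl1* and *Gsc* encode homeodomain factors of the streak and its anterior end, and *Foxa2* and *Sox17* mark the cells that go on to node and endoderm. *Gata4*, *Gata6* and *Sox17* also act in primitive endoderm, the extraembryonic layer of the blastocyst, and the GATA factors act in heart and mesenchyme. The comparison addressed how expression in the reprogrammed cells differed from that of fibroblasts.

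Exon reads summed to between 33084850 and 36694828 per library. The group labels fitted the summed levels of the marker genes. All 11 pluripotent cell markers were called higher in iPSCs, against 27.1% of all genes tested. Their summed TPM (exon reads per exon length, with equal totals across libraries) was 6394 in iPSC line 6 and 7144 in line 10. In fibroblast lines 1 and 2 it was 9.26 and 9.99. All of these markers but *Fgf5* needed their iPSC reads to pass the test's filter on low counts. The count called higher therefore carries no weight beyond the summed levels. The plasmids also carry *Pou5f1*, *Sox2* and *Nanog*, and the endogenous part of their reads was not tested. The 10 fibroblast markers had reads in every library, and their summed TPM was 24054 and 28402 in the fibroblasts, 7037 in iPSC line 6 and 3677 in iPSC line 10. The reads of *M. minutoides* were placed on the *M. musculus* build GRCm38, so a gene whose sequence has diverged may be undercounted, which limits comparisons of level between genes. The study found a little *M. musculus* product in PCR of iPSC DNA and speculates that it came from feeder cells. Any undercount therefore need not be equal in the 2 groups, and its effect on the comparison was not tested.

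All of the regulators but *Gata6* were near 0 in fibroblasts and present in both iPSC lines, and *Gata6* ran the other way. By edgeR's quasi-likelihood test on exon reads, 7 of the 8 regulators were called higher and 1 lower in iPSCs (adjusted p under 0.05 over all 17777 genes tested, and a fold over 2). Over all genes tested, 27.1% were called higher and 22.3% lower. The split was 4818 higher and 3962 lower, and 5768 higher and 3028 lower when libraries were scaled by total counts. All 8 regulators passed the filter on low counts, but *T*, *Mixl1*, *Eomes*, *Gsc*, *Foxa2* and *Sox17* could pass it only through the iPSC libraries. *Gata4*, with 8 and 12 exon reads in the fibroblast lines, also needed its iPSC reads to pass. The count called higher therefore carries no weight beyond the levels below.

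**Figure D1:**
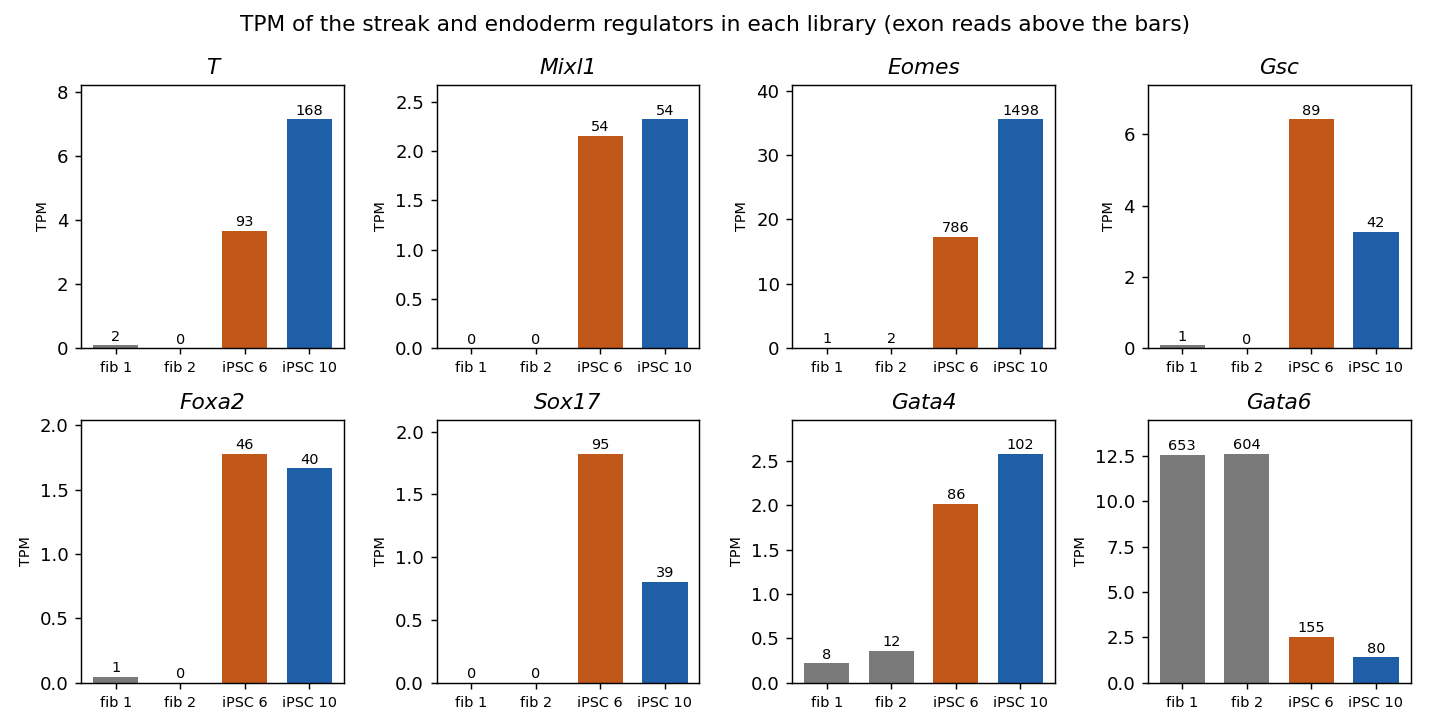
TPM (vertical axes, each from 0) of the 8 regulators in fibroblast lines 1 and 2 (grey), iPSC line 6 (orange) and iPSC line 10 (blue), with exon reads printed above each bar. The first 7 genes stood higher in both iPSC lines than in either fibroblast line, with *Eomes* reaching 35.5 TPM, and *Gata6* stood at 12.6 TPM in both fibroblast lines and at 2.54 and 1.41 TPM in the iPSC lines.

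*Eomes*, a T-box gene needed for streak exit and definitive endoderm in mice, was the most abundant of the regulators in iPSCs. The gene (ENSMUSG00000032446) occupies bases 118478212 to 118486132 of chromosome 9 in GRCm38. It had 786 exon reads in iPSC line 6 and 1498 in line 10, against 1 and 2 in the fibroblast lines. Its TPM was 17.3 in iPSC line 6 and 35.5 in line 10, and the fibroblast lines stood at 0.0259 and 0.0561. The ratio of summed exon reads, scaled by normalized library sizes, was 590.3 (95% counting interval 202 to 2865), and the gene was called higher (adjusted p = 0.000586, edgeR). Its fitted log2 fold change was 8.11 (SE 0.59), and 7.48 without iPSC line 10. *Eomes* alone gave 45.9% of the summed TPM of the 8 regulators in iPSC line 6 and 64.9% in line 10.

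*T*, the founding T-box gene of streak and notochord, lies on chromosome 17 from 8434423 to 8442496. The gene had 93 exon reads in iPSC line 6 and 168 in line 10, and 2 and 0 in the fibroblasts. In TPM the iPSC lines stood at 3.68 and 7.15 (mean 5.42 ± 2.46, SD, n = 2), and both were far above the fibroblast lines at 0.0929 and 0. The scaled ratio of reads was 101 (95% counting interval 27.7 to 840) with adjusted p = 0.00347 (edgeR). The fitted log2 fold change was 5.24 (SE 0.73), and 5.94 without fibroblast line 1.

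The homeodomain genes were also found in both iPSC lines, below *Eomes*. *Mixl1*, which is switched on in the streak and takes part in mesendoderm formation, lies on chromosome 1 from 180693043 to 180697034. It had no exon read in either fibroblast library and 54 in each iPSC library (2.15 and 2.32 TPM). With the fibroblast group set to a floor of 3 reads in all, *Mixl1* was at least 27.9-fold higher in iPSCs (adjusted p = 0.00266, edgeR). *Gsc* (goosecoid), a repressor of the anterior streak and organizer, lies on chromosome 12 from 104471209 to 104473330. It had 1 and 0 exon reads in the fibroblast lines and 89 and 42 in iPSC lines 6 and 10, or 6.42 and 3.27 TPM. Its scaled ratio was 102 (95% counting interval 17.9 to 4042, adjusted p = 0.00403, edgeR), and its fitted log2 fold change of 4.54 (SE 0.67) was 3.91 without iPSC line 6.

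The endoderm factors *Foxa2* and *Sox17* were also detected in both iPSC lines. *Foxa2*, a forkhead pioneer factor of node, notochord and definitive endoderm, lies on chromosome 2 from 148042877 to 148046969. It had 46 and 40 exon reads in iPSC lines 6 and 10 (1.78 and 1.66 TPM) and 1 and 0 in the fibroblast lines. The scaled ratio was 66.7 (95% counting interval 11.7 to 2664, adjusted p = 0.00288, edgeR). *Sox17*, an HMG-box factor of primitive and definitive endoderm that is also active in endothelium, lies on chromosome 1 from 4490931 to 4497354. It had no fibroblast read and 95 and 39 exon reads in iPSC lines 6 and 10, or 1.82 and 0.806 TPM. By the same floor *Sox17* was at least 34.6-fold higher (adjusted p = 0.00776, edgeR), and its fitted log2 fold change of 4.93 (SE 0.71) was 4.15 without iPSC line 6. Of the 8 endothelial markers, 4 were called higher (*Tek*, *Kdr*, *Cdh5* and *Sox18*) and 1 lower (*Pecam1*), against 27.1% and 22.3% of all genes tested. *Kdr*, *Cdh5* and *Sox18* needed their iPSC reads to pass the filter on low counts. The summed TPM of the 8 markers was 34.4 to 37.8 in fibroblasts and 44.3 to 46.4 in iPSCs. *Tek*, an angiopoietin receptor gene, had 29 and 44 exon reads in the fibroblasts and 1078 and 654 in iPSC lines 6 and 10 (log2 fold change 4.13). It was 1.56-fold higher in line 6 (95% counting interval 1.42 to 1.73), the only 1 of the 8 endothelial markers higher there beyond its interval. In line 10, 2 of them were higher. The mean TPM of *Pecam1* was 13.8 ± 0.600 in iPSCs, against 26.7 ± 1.06 in fibroblasts (SD, n = 2 each). The endothelial cadherin gene *Cdh5* had 16 and 15 exon reads in the iPSC lines and *Emcn* had 6 and 10. *Cdh5* was not called without fibroblast line 2 (log2 fold change 1.87), iPSC line 6 (2.27) or iPSC line 10 (2.30), and *Sox18* was not called without fibroblast line 1 (2.31) or 2 (2.30). The part of endothelial-type RNA in the *Sox17* reads was not tested.

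*Gata4* and *Gata6*, zinc finger factors that share binding sites and act together in primitive endoderm and heart, moved in opposite directions. *Gata4* lies on chromosome 14 from 63198922 to 63271692. Fibroblast lines 1 and 2 had 8 and 12 *Gata4* exon reads, iPSC line 6 had 86 and line 10 had 102, and the TPM (0.220 and 0.358 in fibroblasts, 2.02 and 2.58 in iPSCs) rose from 0.289 ± 0.0976 to 2.30 ± 0.396 (SD, n = 2 each). The log2 fold change was 2.67 (SE 0.37, adjusted p = 0.00343, edgeR). In fibroblasts 20 of its 40 gene reads lay in introns, against 56 of 244 in iPSCs. With intron reads included the log2 fold change was 2.03, and the gene was still called higher. Of the 8 cardiomyocyte markers, 6 were tested and called higher, from a summed TPM of 2.05 to 2.55 in fibroblasts to 16.6 to 19.0 in iPSCs, while *Tnnt2* had 8 and 2 exon reads and *Nppa* none in iPSC lines 6 and 10. The titin gene *Ttn* had the largest share of these reads (10103 in iPSC line 6, 8343 in line 10, and 123 and 79 in the fibroblasts). All of the 6 but *Ttn* and *Actn2* needed their iPSC reads to pass the filter on low counts, and 27.1% of all genes tested were called higher. *Actn2* was not called without fibroblast line 1 (1.66) or 2 (1.00) or iPSC line 10 (0.97), nor *Myl7* without fibroblast line 1 (2.71) or 2 (2.70). The part of cardiomyocyte-type RNA in the *Gata4* reads was not tested.

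*Gata6* was the one regulator above 1 TPM in fibroblasts. It lies on chromosome 18 from 11052508 to 11085635 (identifier ENSMUSG00000005836). Fibroblast lines 1 and 2 gave 653 and 604 exon reads, iPSC line 6 gave 155 and line 10 gave 80. Its TPM was 12.6 in both fibroblast lines (mean 12.6 ± 0.0272) and 1.97 ± 0.796 in iPSCs (SD, n = 2 each), and the groups did not overlap. The log2 fold change was -2.77 (SE 0.33, adjusted p = 0.00209, edgeR). *Gata6* made up 96.4% and 96.8% of the summed TPM of the 8 regulators in the fibroblast lines, but 6.73% in iPSC line 6 and 2.58% in line 10.

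*Gata6* and the fibroblast markers were both higher in line 6 than in line 10. *Gata6* was at 20.2% of its fibroblast mean TPM in line 6 and at 11.2% in line 10. The summed TPM of the 10 fibroblast markers was at 26.8% of the fibroblast mean in line 6 and at 14.0% in line 10. Of the 10, 7 were called lower in iPSCs, against 22.3% of all genes tested, and *Lum*, *Postn* and *Dcn* were not called. *Dcn*, named after its values were seen, did not fall. It was at 374 TPM in line 6 and 120 in line 10, against a fibroblast mean of 119. All 10 markers were higher in line 6 than in line 10 beyond their 95% counting intervals, among them the collagen genes *Col1a1*, *Col1a2* and *Col3a1*. By that criterion 27.5% of the 17739 tested genes with iPSC reads were higher in line 6 and 28.4% in line 10, and intervals are narrower for genes with more reads. The part of fibroblast-type RNA, feeder cells included, in the *Gata6* reads was not tested, and in bulk libraries fewer cells of a type and less RNA per cell cannot be told apart. The share of *Gata6* gene reads in introns was 28.6% in iPSC line 10 (95% Clopper-Pearson interval 20.4% to 37.9%), against 9.36% in line 6 (5.44% to 14.7%) and 6.58% and 8.76% in fibroblast lines 1 and 2.

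**Figure D2:**
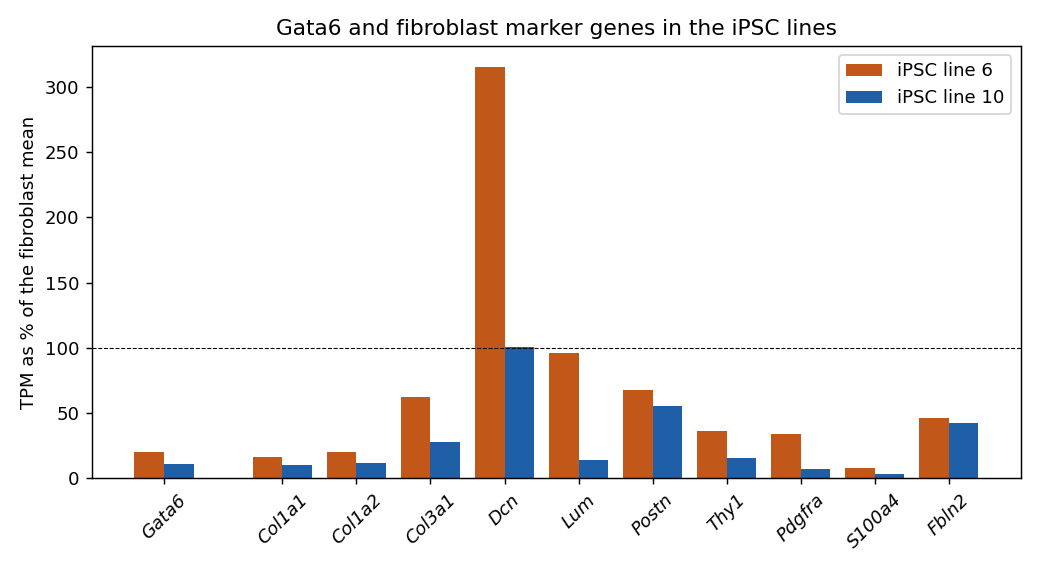
TPM in iPSC line 6 (orange) and iPSC line 10 (blue) as a percentage of the mean of the fibroblast lines (dashed line at 100%), for *Gata6* on the left and the 10 fibroblast markers on the right. *Gata6* stood at 20.2% and 11.2%, and each marker had a taller bar in line 6 than in line 10.

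Ordered by mean TPM in iPSCs, the regulators ran *Eomes* (26.4), *T* (5.42), *Gsc* (4.84), *Gata4* (2.30), *Mixl1* (2.24), *Gata6* (1.97), *Foxa2* (1.72) and *Sox17* (1.31). *Eomes* lay above every other regulator in both lines. The values of *T* and *Gsc* overlapped, and so did those of each neighbouring pair from *Gata4* down to *Sox17*, so their order is not set by these libraries. *Eomes* exceeded 77.5% of the 27437 genes with a TPM above 0 in iPSCs, *T* 58.7% and *Gsc* 57.8%, while the other 5 lay between 45.5% and 51.1%. For comparison, the pluripotency factor gene *Pou5f1* had a mean TPM of 1832 and *Nanog* one of 188. The plasmids also carry both of these genes, and the endogenous part of their reads was not tested. In fibroblasts *Gata6* exceeded 65.2% of the 25421 genes with a TPM above 0.

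The iPSC lines did not carry the regulators in the same proportions. *T* was 1.90-fold higher in line 10 than in line 6 (95% counting interval 1.47 to 2.48), and *Eomes* was 2.01-fold higher in line 10 (1.84 to 2.19). In the other direction, line 6 held 2.01-fold more *Gsc* (1.38 to 2.98), 2.31-fold more *Sox17* (1.58 to 3.45) and 1.84-fold more *Gata6* (1.39 to 2.44). *T* and *Eomes* were higher in the line with less fibroblast marker RNA, and *Gsc*, *Sox17* and *Gata6* in the line with more. The part of fibroblast-type RNA in these differences was not tested. The intervals of *Mixl1* (ratio of line 10 to line 6 of 1.05, 0.709 to 1.57), *Foxa2* (0.917, 0.585 to 1.43) and *Gata4* (1.25, 0.929 to 1.69) held 1. So 5 of 8 regulators differed by more than 1.5-fold with an interval that excluded 1, and 25.5% of the 7820 tested genes with 86 to 2284 iPSC exon reads did so. There was 1 library per line and hence no test of the lines, and the intervals cover counting error only.

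Other streak and nascent mesoderm genes were compared between the lines in the same way. Of 16 such genes, 6 were higher in line 10 and 2 in line 6 beyond their counting interval, against 28.4% and 27.5% of all tested genes with iPSC reads. The 16 include 7 untested genes with few reads, and the shares were not matched for reads, so no excess over all genes is read from the list. Higher in line 10 was the WNT-responsive *Sp5* (87 and 253 exon reads in lines 6 and 10). The homeobox genes *Cdx1*, *Cdx2*, *Evx1* and *Lhx1*, and *Mesp2*, a bHLH factor of presomitic mesoderm, were also higher there. Of these, *Cdx2*, *Evx1* and *Lhx1* were named after their values were seen. Those higher in line 6 were *Fgf8* (31 and 15 exon reads), a growth factor of the streak also named after its values were seen, and *Foxc1*, a forkhead gene of mesoderm and mesenchyme.

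**Figure D3:**
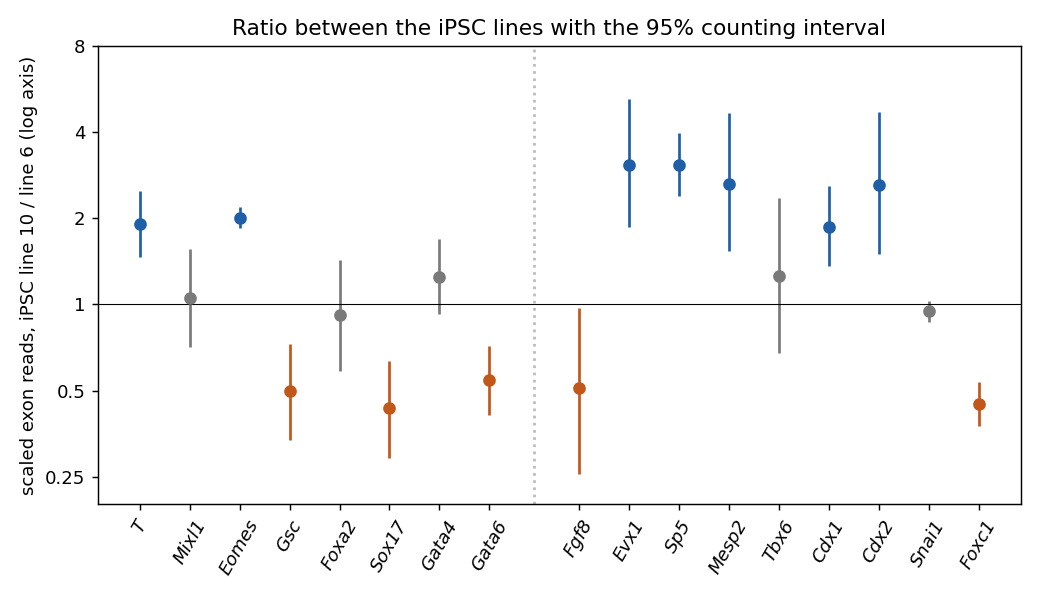
Ratio of exon reads, scaled by normalized library size, in iPSC line 10 over line 6 (log axis) with its 95% counting interval, for the 8 regulators (left of the dotted line) and the 9 tested genes of the streak and nascent mesoderm list. Blue marks an interval above 1, orange one below 1 and grey one that holds 1, so *T* (1.90) and *Eomes* (2.01) stood with *Sp5* (3.07), and *Sox17* stood at 0.433.

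Of these 16 streak and nascent mesoderm genes, 9 were tested against fibroblasts, and 5 were called higher, 2 lower and 2 not. The 5 called higher had at most 8 exon reads in a fibroblast library and passed the filter on low counts only through the iPSC libraries. Their count and the list's median log2 fold change (2.11, against 0.08 over all genes tested) are therefore set in part by the filter. *Sp5* had 1 and 0 exon reads in fibroblasts (scaled ratio 264, 95% counting interval 47.0 to 10443, adjusted p = 0.00412, edgeR), and its fitted log2 fold change of 5.91 was 4.86 without iPSC line 10. *Mesp2* had a log2 fold change of 2.11 (SE 0.59, adjusted p = 0.0291, edgeR), and was not called without iPSC line 10 (1.30), fibroblast line 1 (2.11) or fibroblast line 2 (2.09). The lower ones were *Snai1*, the repressor of E-cadherin in cells that leave the streak, at 127 ± 4.06 TPM in fibroblasts and 67.3 ± 1.62 in iPSCs (SD, n = 2 each), and the T-box gene *Tbx6*. Neither was called lower with total counts or upper-quartile scaling, and *Tbx6* (log2 fold change -1.05, adjusted p = 0.0395, edgeR) was not called when any 1 library was left out (-1.22 to -0.92). *Foxc1* (log2 fold change -0.06) and *Cdx1* (0.50) were not called. The 7 genes left untested had at most 19 exon reads in any library, and *Msgn1*, a bHLH gene of presomitic mesoderm, had none. Without iPSC line 10, or without fibroblast line 1 or 2, the count called higher was 2.

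Of 14 genes of node, axial mesendoderm and definitive endoderm, 8 were tested, and 5 were called higher, 1 lower and 2 not (median log2 fold change 2.89, against 0.08 over all genes tested). The 5 likewise needed their iPSC reads to pass the filter, so this count and median are a description of the list. Over all genes tested, 27.1% were called higher and 22.3% lower. *Foxj1*, a forkhead gene of motile cilia that is active in the node, had 2 and 0 exon reads in fibroblasts and 410 and 463 in iPSCs. *Trh*, which encodes thyrotropin-releasing hormone, was at 95.2 ± 8.18 TPM in iPSCs (SD, n = 2) and had 0 and 4 exon reads in the fibroblast lines. *Foxa3*, a paralog of *Foxa2*, rose by 1.87 on the log2 scale (SE 0.48, adjusted p = 0.0233, edgeR), and was not called without fibroblast line 2 (1.39). The lower one was the N-cadherin gene *Cdh2* (log2 fold change -1.31). The BMP antagonist *Chrd* (-0.65) and the chemokine receptor *Cxcr4* (1.43) were not called, though *Cxcr4* was called higher without fibroblast line 1 (4.23). *Cer1*, which encodes an antagonist secreted by anterior endoderm, was named after its values were seen and had 10 and 0 exon reads in iPSC lines 6 and 10.

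Of 20 genes of primitive and visceral endoderm, 16 were tested, and 5 were called higher, 7 lower and 4 not (median log2 fold change -0.15). Over all genes tested, 27.1% were called higher and 22.3% lower, with a median of 0.08. The lower ones included the basement membrane genes *Col4a1* (log2 fold change -2.23), *Col4a2* (-2.03) and *Lamc1* (-1.42) and the matrix gene *Sparc* (-2.46), which fibroblasts also make. In iPSCs *Sparc* was at 1444 ± 673 TPM and *Col4a1* at 233 ± 72.1 TPM (SD, n = 2 each), and the log2 fold change of *Sparc* was -3.07 without iPSC line 6. *Lamb1* and *Plat* were not called. Those called higher included the endocytic receptor genes *Amn* (134 ± 24.8 TPM in iPSCs, SD, n = 2) and *Lrp2*, the laminin gene *Lama1* and *Cited1*, all named after their values were seen. Each of these needed its iPSC reads to pass the filter on low counts. *Cited1* was not called without fibroblast line 2 (log2 fold change 1.36) or with glmTreat. The visceral endoderm genes *Afp* (2 exon reads in each iPSC line), *Ttr*, *Apoa1* and *Hnf4a* were at or near 0 in every library. In 11 of the 20 genes line 6 was higher than line 10 beyond the counting interval (27.5% of all tested genes with iPSC reads), and in 1 line 10 was higher (28.4%). These shares were not matched for reads, and intervals are narrower for genes with more reads, so no excess over all genes is read from the list.

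**Figure D4:**
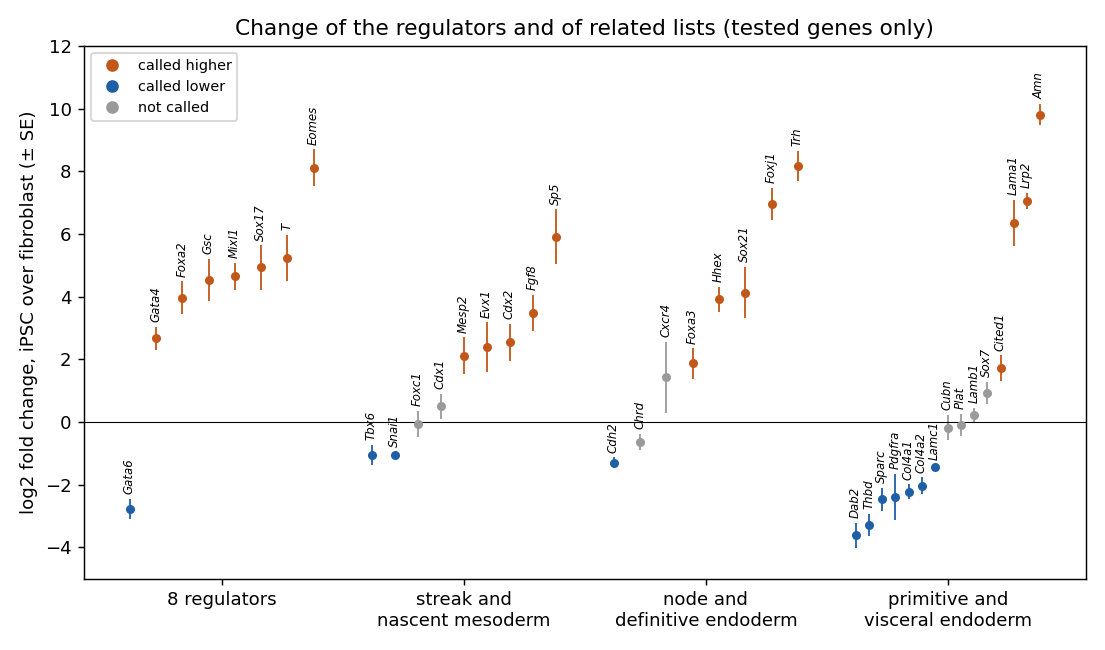
Fitted log2 fold change of iPSCs over fibroblasts ± SE (vertical axis, edgeR, 2 libraries per group) for the 8 regulators and the tested genes of the other lists except 1 that is not shown, in orange where called higher, blue where called lower and grey where not called. *Gata6* (-2.77) lay alone below 0 among the regulators, and fitted values of genes with few or no fibroblast reads depend on the prior count.

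Reads of the regulators were placed uniquely. In iPSCs between 99.8% and 100% of the exon reads of each regulator were unique. The share of exon reads that crossed an exon junction was 33.9% over all genes in iPSCs, and 34.9% for *T* (95% Clopper-Pearson interval 29.1% to 41.0%). It was lower for *Eomes* (18.6%, 16.99% to 20.2%), *Gsc* (18.3%, 12.1% to 26.0%) and *Gata6* (19.6%, 14.7% to 25.2%). *Gata4* had 10.6% (6.62% to 16.0%), *Sox17* 5.97% (2.61% to 11.4%) and *Foxa2* 3.49% (0.725% to 9.86%). *Mixl1*, annotated as 1 transcript of 2 exons and 2294 bases, had 0 of 108, which allows a share of up to 2.78% by the floor of 3 reads, or 3.36% by the Clopper-Pearson limit. Introns held 10.0% of the *T* gene reads (6.80% to 14.0%) and 2.56% of those of *Eomes* (1.96% to 3.28%) in iPSCs, against 12.3% over all genes.

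Annotated genes overlapped *Eomes*, *Sox17* and *Gata6*, and the sources used here do not say whether counting used strand. The antisense gene at *Eomes* had at most 1 exon read in a library, and the transcript at *Sox17* none. *1010001N08Rik*, on the strand opposite to *Gata6*, had 11 exon reads in iPSC line 6, 0 in line 10, and 10 and 4 in the fibroblasts.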

How the data were processed

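Total RNA of 4 cultures was sequenced on an Illumina NovaSeq (1 library per line, 2 lines per group). Per library, the authors deposited read counts per gene (gene, exon, junction and intron reads, total and unique), TPM and RPKM values, and fractions of unique and intron reads. Per the labels the build was GRCm38; the aligner and the counting tool were not named in any source read. The deposited TPM equals exon reads per exon length, scaled per library. RPKM and the deposited fractions were not used.

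Total exon reads of all genes were tested with edgeR 4.0.16 in R 4.3.3 (filterByExpr, TMM, quasi-likelihood test, prior count 2, Benjamini-Hochberg adjustment, 17777 genes). The study's methods compare values after TPM normalization, so limma 3.58.1 on log2(TPM + 1) was the alternative to the count test. TMM gave 0.891 and 0.920 to fibroblast libraries 1 and 2, 1.09 to iPSC line 6 and 1.12 to line 10. The SE was taken from each log2 fold change and the root of its F statistic. Ratios against 1 to 3 counts have exact 95% binomial intervals. Against 0, folds use a floor of 3 counts over the group. Other alternatives were DESeq2 1.42.0, other scalings, filters and fold thresholds, gene or unique reads, other pseudocounts and each library left out. The members and lists were chosen with earlier results of these data known. Named genes are the members and those with the highest mean TPM in a list, at most 4 called ones and 2 others, and any further gene is marked as named after its values were seen, as *Cdh5*, *Emcn*, *Msgn1*, *Afp*, *Ttr*, *Apoa1*, *Hnf4a* and *Nanog* also were. The values of 1 list gene are not reported here, though it stays in the counts and median of its list. On simulated counts for 17261 genes, the test called 100 of 100 genes changed 4-fold and 2 of 17061 unchanged genes. These results were not split by read count, and simulated counts need not share the spread between the real cultures. No detection rate is therefore read from them for genes with few reads, such as *Mixl1*, *Gsc*, *Foxa2* and *Sox17*.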

Additional observations from a re-analysis of the deposited data

How the results depend on the processing

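Each of the 8 regulators kept its direction and its call under every alternative that gave it a value, and leaving out any 1 library left 7 higher and 1 lower. With a filter of 50 counts on the mean, 3 were called higher, because *Mixl1*, *Gsc*, *Foxa2* and *Sox17* were removed by the filter. Outside limma the lowest log2 fold change of *Eomes* was 7.48, and with limma on log2(TPM + 1) it was 4.64. Over all genes, 5965 were lower without a fold threshold. Total counts shifted the median of all genes by 0.28 on the log2 scale, upper-quartile scaling by 0.18, total gene reads by -0.11 and limma by 0.12 to 0.13. Of the streak and nascent mesoderm genes, 1 was higher under the filter of 50 counts, 3 with glmTreat, 2 with limma on genes with a TPM of at least 1, and 2 to 6 with 1 library left out. Those called lower numbered 1 with DESeq2 or a filter of at least 1 count, 1 with any library left out, and 0 with total counts, upper-quartile scaling, the filter of 50 counts, glmTreat or limma. The filter of 50 counts also left 2 node and definitive endoderm genes higher and 3 primitive and visceral endoderm genes higher, and glmTreat left 0 of the node and definitive endoderm genes lower. By CPM of gene reads, which is not per length, *Gata6* ranked 3, *Gsc* 5, *Sox17* 6 and *Mixl1* 7 among the regulators in iPSCs. Where not named, the cause was not tested. Depth limits the genes with under 100 iPSC reads most, and 2 libraries per group limit every test. No paired analysis was possible because the line numbers of the groups are not shared.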

Other observations

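Paralogs of the regulators were measured in the same libraries. Of the 17 T-box genes, *T* and *Eomes* included, 8 were called higher, 4 lower and 1 not, and 4 were not tested. Over all genes tested, 27.1% were called higher and 22.3% lower, and the 8 needed their iPSC reads to pass the filter on low counts. *Tbx3*, a T-box gene of naive pluripotent cells, was at 109 ± 9.28 TPM in iPSCs (SD, n = 2), above *Eomes* in both lines, and had 4 and 1 exon reads in the fibroblast lines. *Tbx4*, named after its values were seen and known from hindlimb and lung mesenchyme, had 801 and 843 exon reads in iPSC lines 6 and 10 and 3 in each fibroblast line. *Tbx15* and *Tbx18*, mesenchymal T-box genes, fell by 1.41 and 2.90 on the log2 scale. *Tbx15* was not called without iPSC line 10 (-0.93) or either fibroblast line (-1.46 and -1.40), and without iPSC line 6 the values were -2.16 for *Tbx15* and -3.71 for *Tbx18*. *Mga*, a T-box and MAX partner gene, was not called (log2 fold change 0.94), and *Tbr1* was not tested.

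In the GATA family, 2 of 6 were higher and 2 lower, against 27.1% and 22.3% of all genes tested. *Gata3* resembled *Gata6*, with 395 and 370 exon reads in fibroblasts and 72 and 64 in iPSC lines 6 and 10 (log2 fold change -2.82), but did not differ between the iPSC lines beyond counting error (ratio of line 10 to line 6 of 0.937, 0.658 to 1.33). *Gata2* was the most abundant GATA gene in iPSCs at 19.8 ± 1.98 TPM (SD, n = 2), and its log2 fold change of 1.07 was not called on total gene reads, with glmTreat, without fibroblast line 2 (0.95) or without iPSC line 10 (0.97). *Gata5* was not called and *Gata1* was not tested. Of the *Foxa* and *Sox17* paralogs, *Sox18* was called higher at 15 exon reads in each iPSC line but not without fibroblast line 1 (2.31) or 2 (2.30), *Sox7* was not called and *Foxa1* was not tested.

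Among 10 partners of the GATA factors in heart and mesenchyme, 4 were higher and 5 lower, against 27.1% and 22.3% of all genes tested. The 4 needed their iPSC reads to pass the filter on low counts. *Hand1* and *Hand2*, bHLH paralogs, went in opposite directions, as *Gata4* and *Gata6* did. *Hand2* had 3345 and 3396 exon reads in fibroblasts and 183 and 85 in iPSC lines 6 and 10 (log2 fold change -5.01, and -5.61 without iPSC line 6). *Hand1*, named after its values were seen, had no fibroblast read, 50 exon reads in iPSC line 6 and 165 in line 10, or at least 55.6-fold more than a fibroblast floor of 3 reads in all. Its fitted log2 fold change was 5.63, and 4.45 without iPSC line 10. *Hand1* was 3.48-fold higher in line 10 than in line 6 (95% counting interval 2.52 to 4.87). It was the only 1 of the 10 partners higher in line 10 beyond its interval, and 4 were higher in line 6. Among all tested genes with iPSC reads, 28.4% were higher in line 10 and 27.5% in line 6. The cofactor genes *Zfpm1*, *Mef2c* and *Smad1* were called lower (log2 fold changes -1.40, -4.13 and -1.01), but *Smad1* kept its call in 6 of 17 alternatives, and *Srf* was not called.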
